A study of Sus scrofa with 28 samples.

Results

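The 4 short stretches of the pig genome described here held 1837 of the 84192 peaks that the liver ATAC-seq libraries listed, or 2.18%. The stretches were chromosome 9 from 63.2 to 63.5 Mb, chromosome 5 from 39.8 to 40.2 Mb, chromosome 6 from 38.7 to 38.9 Mb and the first 20 kb of chromosome 8, all in build Sscrofa11.1, and a peak belonged to them if its deposited start lay inside. They cover 920 kb in all. The stretches were chosen by the number of peaks that earlier results of the same data showed there and by how the 200 and 600 libraries listed them, so their density, how often they were listed and the listing in one set of libraries or the other are a description. A test of listing was run over the whole list, and its counts are given once beside their background, with nothing read from them. Peaks of all 28 libraries that overlapped by at least 1 bp were joined into sites, which gave 163 sites in the stretches and 29392 regions in the whole list.

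ATAC-seq uses a transposase that inserts sequencing adapters where DNA is not covered by nucleosomes, so that read pile-ups mark open chromatin. Open sites between genes are often enhancers, and open sites at gene starts are promoters. A peak caller of the kind used here reports for each peak a width, a summit, a −log10 p for the strongest position and the area under the signal, and all of these also move with sequencing depth and with the sizes of the fragments.

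The livers came from female Zlotnicka White pigs, aged 180 days and slaughtered at about 100 kg, and the libraries were made from digested, strained and frozen liver tissue. The series asks how open chromatin in liver relates to fat content. Its 4 groups of 7 libraries are high fat with the number 200, low fat with 200, high fat with 600 and low fat with 600, and all groups share breed, sex, age and tissue. The labels do not say what 200 and 600 stand for, they give the fat group under a tag named shear force, and they do not say whether libraries with the same replicate number come from one animal. All 200 libraries carry one lane tag in the peak list and all 600 libraries the other, so the number and the lane cannot be told apart. P-values below measure the spread between these libraries.

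Libraries differed widely in their number of listed peaks, from 196 to 17652 in the 200 set and from 39 to 6453 in the 600 set. The files hold no read counts, so depth is unknown. As a check of the tissue, peaks centred at most 1000 bp from an annotated gene end were found in at least 1 library for 11 of 12 hepatocyte genes, led by HPX in 11, FOXA1 in 9 and FGG and TTR in 8 libraries each, while HNF4A had none. The same count was 0 of 8 for endothelial and stellate genes, 1 of 6 for macrophage genes (CD14, in 6 libraries), 2 of 6 for lymphocyte genes and 0 of 5 for cholangiocyte genes. Some of the 11 hepatocyte genes had few libraries, with SERPINA1 in 1 and APOA1, AMBP and FOXA2 in 2 each. The share over all genes is not given here.

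In the stretches the number of peaks varied far less than in the lists as a whole. A 200 library listed between 82 and 156 peaks there, with a median of 95.5, a 1.90-fold range against a 90.1-fold range of all its peaks. The stretches therefore made up between 0.779% and 43.9% of the list of a 200 library. A 600 library listed between 3 and 42 peaks there, with a median of 25.5, and the shares ran from 0.170% to 40.6%. No 600 library reached the lowest 200 library. The list of the high fat 200 library number 6 held 205 peaks, and 90 of them lay in the stretches. The low fat 200 library number 2 held 196, with 82 in the stretches.

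**Figure D1:**
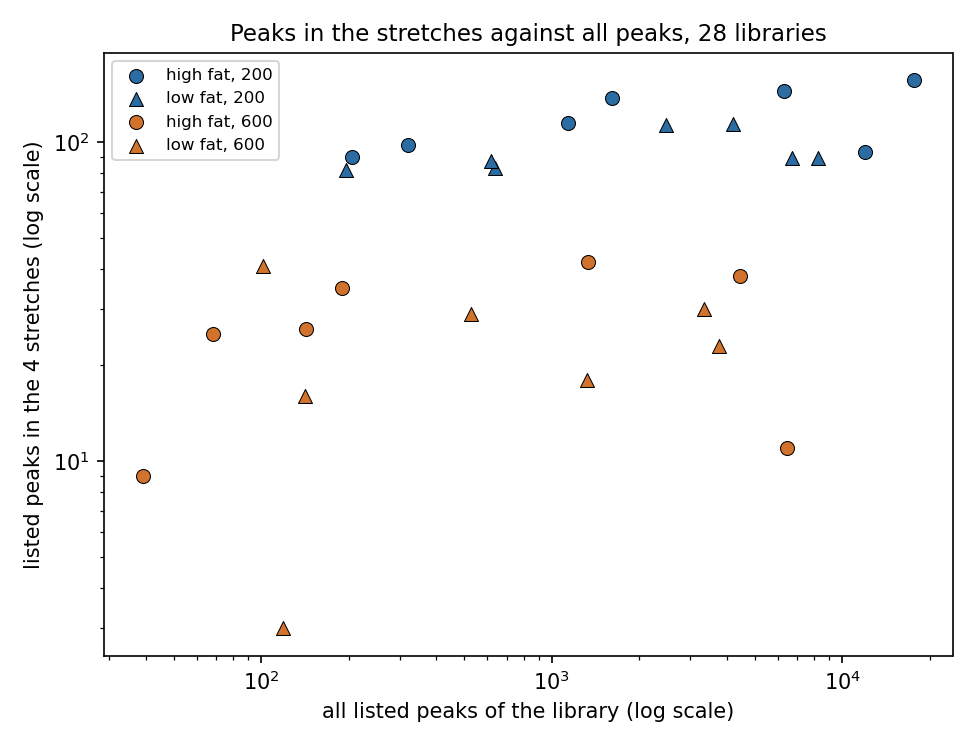
Listed peaks in the 4 stretches (vertical axis, log scale) against all listed peaks of the same library (horizontal axis, log scale), 1 point per library, blue for 200, orange for 600, circles for high fat and triangles for low fat. The 200 libraries stay between 82 and 156 while their lists run from 196 to 17652 peaks, and the 600 libraries lie below them, between 3 and 42.

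The stretches were dense in sites and their surroundings held fewer. Counted in bins of 100 kb over the genome, 7 of the 10 bins with the most peaks lay in the stretches, and the fullest held 344 peaks on chromosome 9. The fullest bin elsewhere held 215, and the median of 11883 bins with any peak was 4. In the 200 kb to the left of the chromosome 9 stretch 4 peaks were listed, and to the right 1. The counts were 37 and 3 around the chromosome 5 stretch, 0 and 1 around that of chromosome 6, and 14 to the right of that of chromosome 8.

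The limit on chromosome 5 cut between sites that many libraries listed. There the nearest region outside, chr5:39796959-39800007, was listed in 12 libraries, more than the first site inside, chr5:39811073-39812238, with 8. On chromosome 8 the last site inside, chr8:19073-19498, was listed in 13 libraries and the next region outside in 1. On chromosome 9 the outermost sites were listed in 3 and 1 libraries and the nearest regions outside in 2 and 1, and on chromosome 6 the numbers were 2 and 3 inside and 1 and 1 outside.

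None of the 163 sites overlapped an annotated gene in the RefSeq table of the same build, so each site was intergenic. The stretches themselves are not all free of genes, since the protein-coding gene LOC110260582 lies at chr5:39978673-39983923, and 0 listed peaks overlapped it. The chromosome 5 sites were otherwise flanked by OSBPL8, which in human encodes a lipid transfer protein of the endoplasmic reticulum, 66418 bp to the left, and by the tRNA gene TRNAL-CAA 94921 bp to the right. The next protein-coding gene on that side was ALG10, in human a glucosyltransferase of N-glycan synthesis, 216906 bp away. On chromosome 9 the nearest genes were the long noncoding RNA LOC110255466, 134626 bp to the left, and MROH9, 122184 bp to the right. On chromosome 6 they were the pseudogene LOC100522319 at 308373 bp and the long noncoding RNA LOC110261431 at 67633 bp. On chromosome 8 PIGG, in human an enzyme that modifies glycosylphosphatidylinositol anchors, began 1939 bp after the last site.

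**Figure D2:**
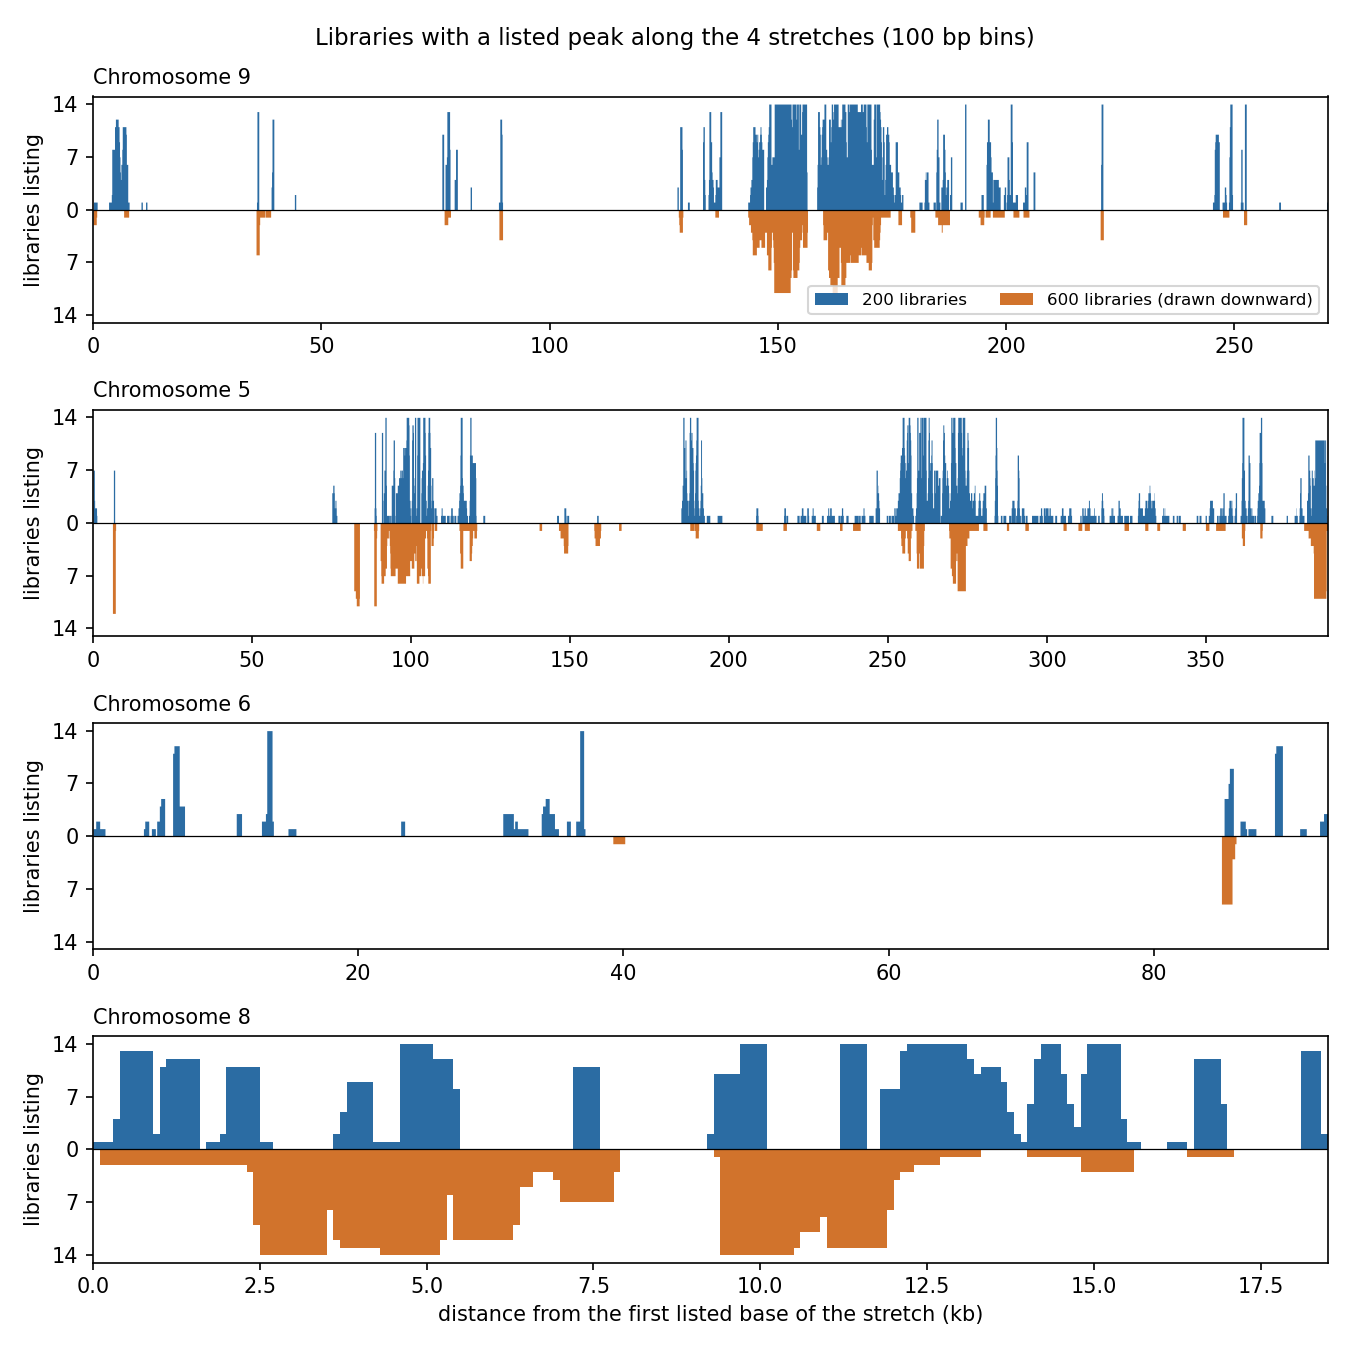
Number of libraries with a listed peak in each 100 bp bin along the 4 stretches, 200 libraries upward in blue and 600 libraries downward in orange, with the distance from the first listed base in kb. Blocks in which 14 of 14 libraries of the 200 set list the same bin stand between empty gaps, and only on chromosome 8 do all 14 libraries of the 600 set share bins.

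The stretches differed in how their sites were spread. Chromosome 5 held 860 peaks in 94 sites, 38 of them listed by 1 library. Chromosome 9 held 633 peaks in 42 sites, 9 of them listed by 1 library and 21 by at least 10. Chromosome 8 packed 234 peaks into 6 sites, and listed bases covered 77.4% of its window. Chromosome 6 was the thinnest, with 110 peaks in 21 sites that covered 6.17% of its window, against 24.1% on chromosome 9 and 41.8% on chromosome 5. Over all 4 stretches 53 sites were listed by 1 library, 20 by 2 and 90 by at least 3 libraries. Sites of 1 library came mostly from 3 high fat 200 libraries, numbers 1, 4 and 3, with 12, 11 and 8 of them.

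Of 44 regions in the whole list that every 200 library listed, 23 lay in the stretches. Only 2 sites were listed by all 28 libraries, both on chromosome 8. Per library, the 200 set listed 24 to 48 peaks on chromosome 9, 33 to 93 on chromosome 5, 3 to 12 on chromosome 6 and 10 to 13 on chromosome 8. The 600 set listed 0 to 15, 0 to 23, 0 to 2 and 3 to 8. Chromosome 8 was thus the one stretch where the library counts stayed within 3 peaks of each other in the 200 set and where no 600 library was empty.

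The stretches were partly chosen by listing, which is not independent of strength. Within a 200 library the peaks of the stretches ranked high, with a median percentile of −log10 p of 63.7 to 95.8. In the 600 libraries that percentile was 36.8 to 87.7, so in some of them the peaks ranked below the middle. In 14 of 14 libraries of the 200 set their median −log10 p exceeded that of the library's other peaks, with medians of 4.76 to 5.38 in the stretches and 3.74 to 4.71 elsewhere. In the 600 set this held in 9 of 14 libraries. The median area was the higher one in 14 of 14 and 10 of 14 libraries, and the median width in 10 of 14 and 9 of 14. They were far from the strongest peaks of the list all the same, since the highest −log10 p in the stretches was 64.0 and the highest anywhere 7881.

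Peak names carry running numbers with gaps, which shows that called peaks were removed before the list was deposited, by a rule not given in the sources used here. The listed share was mostly higher in the stretches, where it was counted from the first to the last listed number of each stretch, so that both ends are listed by construction and short runs come out high. In the 200 libraries 46.8% to 66.7% of the numbers there were listed, against at most 3.52% to 36.1% over the whole library, and the share was higher in the stretches in 14 of 14. In the 600 libraries the ranges were 28.1% to 100% and 3.04% to 52.9%, and the share was higher in 11 of 14.

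Chromosome 9 was built around a pair of wide sites. The site chr9:63386057-63404925 collected 160 peaks and was listed by 14 libraries of the 200 set and 12 of the 600 set. In the 200 libraries its strongest peak had a −log10 p of 5.89 at the lowest, 7.63 at the median and 8.52 at the highest, and in the 600 libraries 3.61, 5.01 and 11.13. The ranges overlapped, and both extremes were 600 libraries. A 200 library broke this site into 4 to 13 peaks with a median of 9, while a 600 library listed 1 to 6 with a median of 3. The widest peak of all stretches lay here, 14658 bp in the high fat 600 library number 4. Its neighbour chr9:63370964-63383960 collected 104 peaks in the same numbers of libraries. There the strongest peak of a 200 library was 495 to 7095 bp wide, with a median of 5381 bp, and that of a 600 library 835 to 5964 bp, with a median of 3820.5 bp.

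The sites around these differed in how much their width varied. In the 200 set it ran from 279 to 1390 bp at chr9:63363645-63365188, from 254 to 1108 bp at chr9:63362273-63363578 and from 263 to 1237 bp at chr9:63412043-63415126. At other sites it varied little within a set. At chr9:63418518-63418746 the peak was 217 to 229 bp wide in all 14 libraries of the 200 set, with a −log10 p of 4.20 to 6.66, and no 600 library listed it. At chr9:63448214-63448832 it was 280 to 425 bp wide in 14 libraries of the 200 set and 597 to 608 bp wide in 4 libraries of the 600 set. At chr9:63479600-63480216 it was 272 to 306 bp in 14 and 598 to 603 bp in 2 libraries. At both sites the widths of the sets did not overlap. Every 600 library was above every 200 library at 42.3% of the 3190 regions listed by at least 3 libraries of each set. The second site, with 2 libraries of the 600 set, is not among those regions.

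Chromosome 5 had several blocks. The block chr5:39901393-39918267 collected 173 peaks, the most of any site, from 14 libraries of the 200 set and 11 of the 600 set. Its 200 libraries split it into 7 to 12 peaks each, and the high fat 600 library number 1 covered most of it with one peak of 13018 bp. A run of 3 adjoining sites, chr5:40062989-40069080, chr5:40069578-40077436 and chr5:40077576-40092207, were each listed by 14 libraries of the 200 set and by 5, 6 and 10 of the 600 set. In all of them every 600 value of −log10 p lay below every 200 value, for instance 3.72 to 4.63 against 6.57 to 8.01 at the last one. The same held at 18.4% of the 3190 regions listed by at least 3 libraries of each set.

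At its right end stood chr5:40191956-40199429, listed by 13 libraries of the 200 set and 10 of the 600 set. The strongest peak had a −log10 p of 5.63 at the lowest, 8.62 at the median and 14.9 at the highest in the 200 libraries, and of 7.95, 14.6 and 39.1 in the 600 libraries. The 600 values were mostly the higher ones, though the ranges overlapped. The value of 39.1 came from the low fat 600 library number 2, whose list held 101 peaks. Widths ran from 641 to 4380 bp in the 200 set and from 3792 to 7474 bp in the 600 set, where the median was 3854 bp.

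Chromosome 6 held short peaks, with a median width of 341 bp and none above 1056 bp. The sites listed most by the 200 set, chr6:38757235-38758030 and chr6:38780960-38781471, appeared in 14 of 14 libraries of the 200 set and in none of the 600 set. The first was 239 to 687 bp wide with a −log10 p of 5.80 to 8.76, and all 14 libraries put its summit on the same base. The second was 243 to 475 bp wide with a −log10 p of 4.29 to 7.17. Only chr6:38829584-38830593 was shared by both sets, with 9 libraries of each, which made it the most listed site of chromosome 6 over all libraries. Its peak was 219 to 576 bp wide in the 200 set and 689 to 983 bp in the 600 set.

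A summit on one base was not general. Over the 23 sites with a single peak in each of at least 10 libraries of the 200 set, the standard deviation of the summit position had a median of 51.0 bp and ran from 0 to 287 bp. Over 145 other regions of the same kind the median was 43.8 bp and the range 0 to 345 bp.

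On chromosome 8 the peaks of the 600 libraries were strong. At chr8:919-8795 the strongest peak of a 200 library had a −log10 p of 6.81 at the lowest, 11.7 at the median and 29.6 at the highest, and that of a 600 library 3.94, 13.4 and 53.9. At chr8:10157-14774 the values were 5.67, 9.24 and 19.1 in the 200 set and 8.10, 21.8 and 64.0 in the 600 set. The ranges overlapped at both sites. The highest values came from short lists, but so did the lowest 600 value at both sites. At chr8:10157-14774 the 3 highest 600 values were 64.0, 63.0 and 59.2, in libraries with 141, 101 and 68 listed peaks, and the highest 200 value was in a library with 635. At chr8:919-8795 the highest 200 value was in the library with 196 peaks and the lowest in one with 11943. The lowest 600 values, 3.94 at chr8:919-8795 and 8.10 at chr8:10157-14774, were both in the low fat 600 library number 5, with 119 listed peaks. A short list thus did not always go with a high value in the 600 set. The part of depth in this was not tested. The other 4 sites of this stretch were mostly those of the 200 set, with chr8:14804-16532 in 14 libraries of the 200 set and 3 of the 600 set, chr8:17366-17971 in 12 and 1, and chr8:19073-19498 in 13 and 0.

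Set by set, 1491 of the peaks in the stretches came from 200 libraries, 2.40% of their lists, and 346 from 600 libraries, 1.57% of theirs. Of the sites, 105 were listed by 200 libraries alone, 10 by 600 libraries alone and 48 by both. Among the 90 sites listed by at least 3 libraries, 80 had more 200 libraries, 6 had more 600 libraries and 4 were even. Bases covered by 600 peaks mostly lay under 200 peaks as well, which held for 81.7% on chromosome 9, 74.5% on chromosome 5 and 62.3% on chromosome 8, but for 32.9% on chromosome 6.

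**Figure D3:**
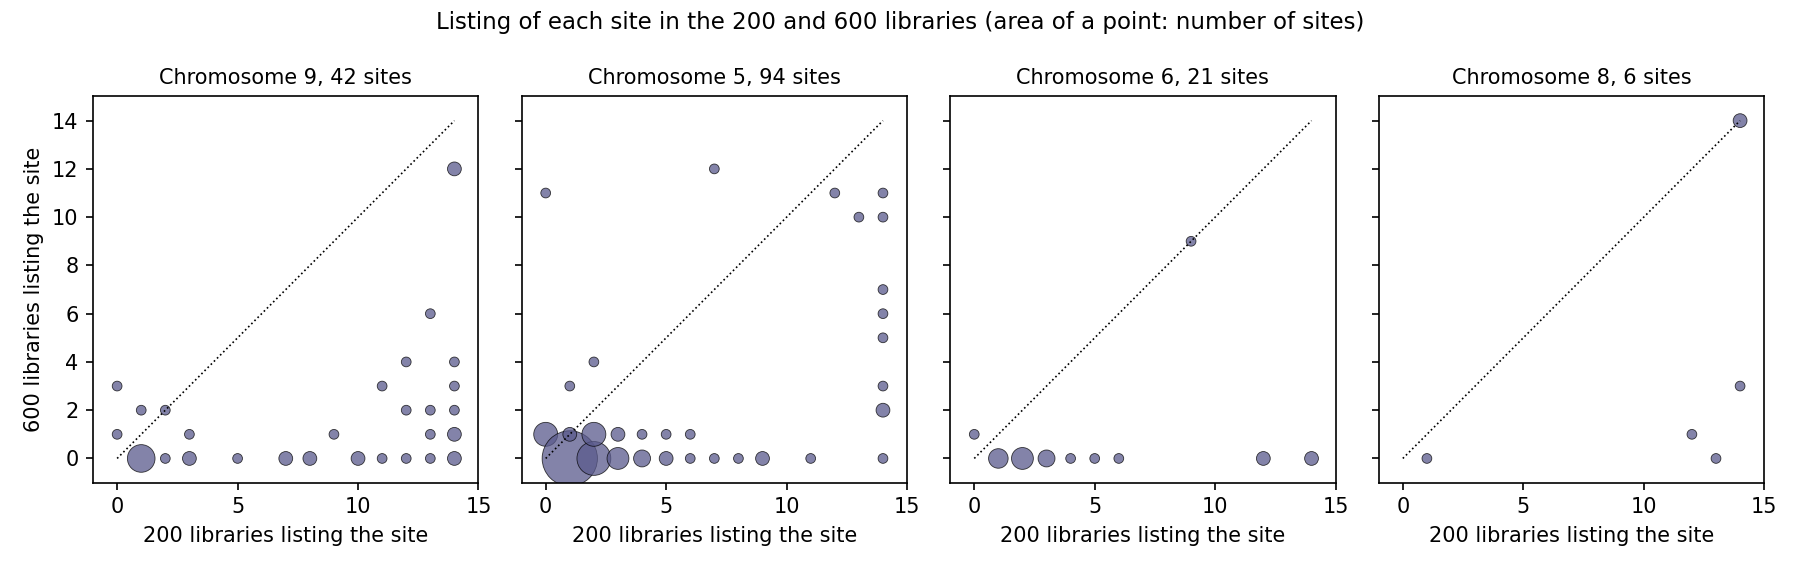
Number of 600 libraries (vertical axis) against 200 libraries (horizontal axis) that list each site, 1 panel per stretch, with the area of a point growing with the number of sites and the dotted line marking equal numbers. Most points lie below the line, 2 sites of chromosome 8 stand at 14 and 14, and 1 site of chromosome 5 stands at 0 and 11.

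Fisher's exact test over all 8592 regions listed by at least 3 libraries called 42 at an adjusted p under 0.05 (Benjamini-Hochberg), which is 0.489% of them, and 27 of these were among the 90 sites tested in the stretches. Because the stretches had been chosen with listing results known, nothing is read from that count. At an unadjusted p under 0.05 the test gave 49 of the 90 sites and 4.5% of all regions. Of the 27 sites, 26 were listed less by the 600 set (0.477% of all regions) and 1 was listed more (0.0116%). By chromosome, 14 lay on chromosome 9, 6 on chromosome 5, 4 on chromosome 6 and 3 on chromosome 8. The most uneven were the 5 sites with 14 of 14 libraries of the 200 set and 0 of 14 of the 600 set, of 8 such regions in the whole list. Beside those given above they were chr9:63476343-63477062, 475 to 713 bp wide, and chr5:40094548-40095597, 292 to 988 bp wide.

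The site listed more by the 600 set, chr5:39893110-39894847, was listed by 0 of 14 libraries of the 200 set and 11 of 14 of the 600 set, 6 of high and 5 of low fat. Its peak was 906 to 1734 bp wide, with a median of 1710 bp, and its −log10 p was 3.82 to 5.65. In 3 of the 14 libraries of the 200 set no peak number was missing between the neighbouring listed peaks, so no peak had been called there and removed. In the other libraries of that set, with numbers missing, a removed peak and a closed site cannot be told apart. The site chr5:39817177-39818105 also had more 600 libraries, 12 against 7. Restricted to libraries with at least 1000 peaks, 9 of the 200 set and 6 of the 600 set remained. The count was then 1 lower in the 600 set, which in sets of unlike size does not mean a lower share.

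Width and strength are measures that positions do not fix, but they are not independent of listing, by which the stretches were partly chosen. No listed peak had an area below 400, and the lowest −log10 p was 2.83. The part of that choice in the differences below was not tested. Width and strength were compared at the 20 sites listed by at least 3 libraries of each set, over the libraries that listed the site. The fit with limma ran over all 3190 such regions, on the strongest peak per library, with the fat group as a term and p-values adjusted over all regions. It leaves unlisted libraries out as missing.

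Peaks were wider in the 600 set at 12 of the 20 sites, and at none narrower, but 69.2% of all regions passed in the same direction, and the share of the sites is near that background. The median log2 difference, 600 minus 200, was 0.83 over the 20 sites and 0.75 over all regions. With each library's widths centred on its own median, the direction turned at most sites, the median of all regions became −0.26, and 1 of the 20 sites passed, against 3.82% of all regions. That site was chr5:39817177-39818105, 278 to 319 bp wide in 7 libraries of the 200 set and 759 to 929 bp in 12 of the 600 set. The log2 difference was 1.56 (SE 0.09, adjusted p = 1.8e-11, limma), 0.80 above the median of all regions, and it was 0.57 after centring (adjusted p = 0.00386). Every 600 library was above every 200 library in width at 8 of the 20 sites, against 42.3% of all regions.

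Strength differed between the sets at nearly all of the sites. At 17 of the 20 sites the −log10 p was lower in the 600 set (adjusted p under 0.05, limma; 27.6% of all regions), at 2 it was higher (0.188% of all regions), and 1 did not pass. The median difference in log2 of −log10 p was −0.51 over the sites and −0.33 over all regions, and it was −0.36 and −0.15 after centring on the library medians, when 10 sites passed as lower and 2 as higher, against 2.38% and 0.188% of all regions. Every 600 library lay below every 200 library at 10 of the 20 sites, against 18.4% of all regions, and above every 200 library at none, against 0.0313%. The sites were listed by more libraries than most regions. Among the regions listed by at least 6 libraries of each set 7 of 13 sites passed, and 26 of 501 regions.

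The largest decrease was at chr8:14804-16532, where 14 libraries of the 200 set had a −log10 p of 7.18 to 9.42 and 3 of the 600 set 3.52 to 5.21. The log2 difference was −0.99 (SE 0.11, adjusted p = 7.34e-06, limma), and −0.66 relative to the median of all regions. Next came chr5:39925637-39931690, with 5.89 to 8.04 in 14 libraries and 3.17 to 4.24 in 7. Its log2 difference was −0.95 (SE 0.08, adjusted p = 8.85e-09, limma). At the 3 adjoining sites of chromosome 5 given above the differences were −0.88, −0.89 and −0.79, and at chr9:63448214-63448832 it was −0.87. At the pair of wide sites of chromosome 9 the differences were smaller, −0.44 at the left and −0.41 at the right one, and neither passed after centring.

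Both increases were at sites that 28 and 23 libraries listed. At chr8:10157-14774, with the values given above, the difference in log2 of −log10 p was 1.21 (SE 0.25, adjusted p = 0.00526, limma), 1.54 above the median of all regions. At chr5:40191956-40199429 it was 0.96 (SE 0.21, adjusted p = 0.00826, limma), 1.29 above that median. At chr8:919-8795 it was 0.05 (SE 0.30, adjusted p = 0.873, limma), an estimate too loose to call the sets alike. The increase at chr8:10157-14774 and the decrease at chr8:14804-16532 were thus at neighbouring sites.

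**Figure D4:**
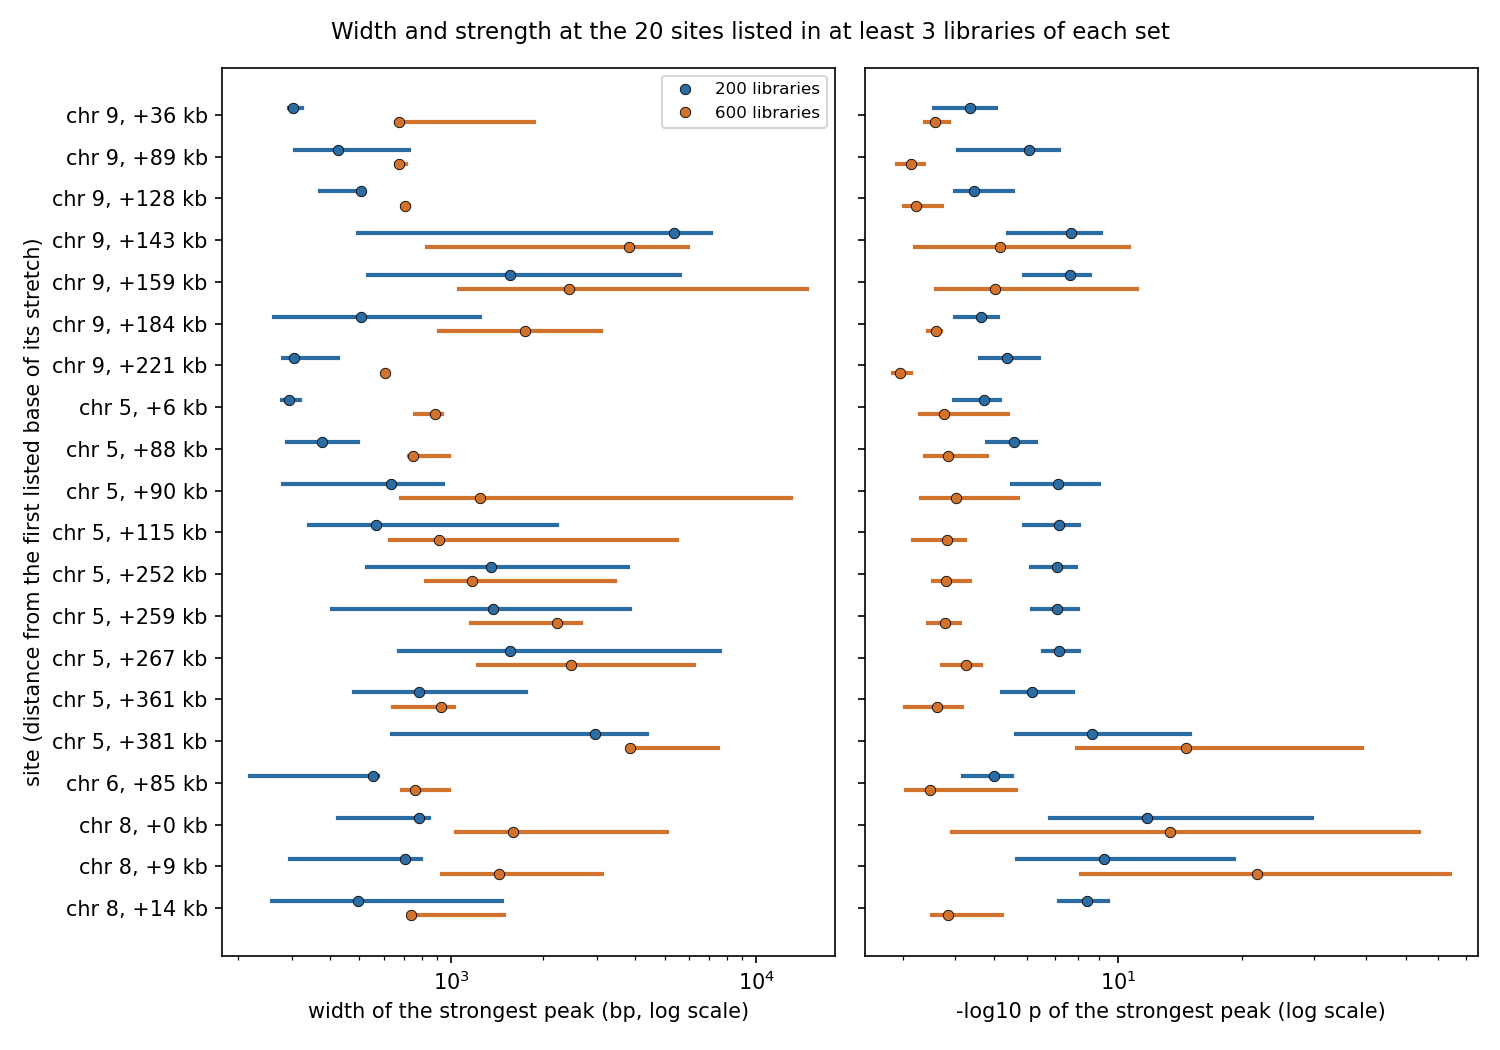
Width in bp (left) and −log10 p (right) of the strongest peak at the 20 sites listed by at least 3 libraries of each set, on log axes, with points for medians and lines from the lowest to the highest library, blue for 200 and orange for 600. The orange median lies right of the blue one in width at most sites, for widths as deposited and not after centring on library medians, and left of blue in −log10 p except at the last site of chromosome 5 and the first 2 of chromosome 8.

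Area combines both measures. It passed at 4 of the 20 sites, against 0.627% of all regions. All 4 were larger in the 600 set (0.596% of all regions) and none smaller (0.0313%). After centring on the library medians most calls were in the other direction, with 9 sites smaller in the 600 set (4.17% of all regions) and 1 larger (0.313%), and the median difference over the 20 sites was −0.78, against −0.46 over all regions. Without centring the 4 sites were chr5:39817177-39818105, chr5:40191956-40199429, chr8:919-8795 and chr8:10157-14774. At the last one the median area was 1945 in the 200 set and 13310.0 in the 600 set, in the caller's own units.

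High and low fat libraries were not told apart by the listing of any site. In the 200 set 0 of 7342 regions passed, 0% of those tested, and 0 of the 78 sites among them, with 1 region, or 0.0136%, at an unadjusted p under 0.05 (Fisher's exact test). That region, chr5:39886199-39887730, lay in the stretches and is named here after its values were seen. It was listed by 5 high fat libraries and 0 low fat libraries (p = 0.0210, adjusted p = 1, Fisher's exact test). In the 600 set 0 of 3398 regions passed, with 0 at an unadjusted p under 0.05, and 24 sites among them. With 7 libraries against 7 the smallest p of this test is 0.000583, so 1 region alone could not pass the adjustment.

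The number of peaks in the stretches was compared between the fat groups by an exact permutation test of means, two-sided, adjusted over the 2 sets. High fat 200 libraries listed 90 to 156 with a mean of 119 ± 26.9 (SD, n = 7), and low fat 200 libraries 82 to 114 with a mean of 93.9 ± 13.7 (SD, n = 7). The difference of 25.3 peaks did not pass (exact permutation p = 0.0530, adjusted p = 0.106). Counting peaks above the median −log10 p of their set, it was 19.3 and passed (exact permutation, adjusted p = 0.0268), and with the 9 libraries of at least 1000 peaks it was 27.9 (adjusted p = 0.143). All listed peaks of these libraries ran from 205 to 17652 in the high fat and from 196 to 8221 in the low fat group, and their part in the difference was not tested. In the 600 set the means were 26.6 ± 12.9 and 22.9 ± 12.1 (SD, n = 7 each), a difference of 3.71 (exact permutation p = 0.597, adjusted p = 0.597).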

How the data were processed

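The deposited table lists peaks for 28 ATAC-seq libraries of pig liver. Per the submitters' processing notes, FastQC, BWA, SAMtools, Picard and Genrich were used with build Sscrofa11.1; their versions and roles are not given in the sources used here. Per the file headers the deposited columns include start, end, score, signal value, p-value, summit and library. The deposited p-value column runs from 2.83 to 7881 and thus holds −log10 p. The deposited signal value is never below 400 and is the caller's peak area; the deposited score equals 1000 times signal divided by width, capped at 1000, within 1. Such values were used only to describe peaks and to follow single sites over libraries. Starts count from 0 in the file and from 1 in the text. Depth per library is unknown, so no counting interval is given.

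Regions join all peaks that share at least 1 bp. Listing was compared by Fisher's exact test (two-sided, regions of at least 3 libraries), and log2 width, log2 of −log10 p and log2 area by limma 3.58.1 in R 4.3.3 (regions of at least 3 libraries of each set), with Benjamini-Hochberg adjustment over all regions and a threshold of 0.05. The tests were tested on simulated data. Genes came from the RefSeq table of Sscrofa11.1 (28073 genes); the sequences under the peaks were not analysed here. Sites with values are, per stretch, the 3 most listed, the strongest, the widest, the 3 with the largest difference between sets, and all that passed an adjusted test. The stretches, the marker lists and these rules were chosen with earlier results of these data known. The comparison of peak numbers between fat groups was added after the data were seen. Same-numbered libraries were not treated as pairs. Alternatives were centres within 500 bp, other minimum numbers of libraries, peaks above the median of their set, libraries of at least 1000 peaks, library-centred values and a replicate block. Python 3.11.15, pandas 2.3.3 and scipy 1.17.1 were used.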

Additional observations from a re-analysis of the deposited data

Results flagged for a closer look

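Among 44 combinations of a measure and a group of 7 libraries, examined for a library far from the others, 4 held one. Chance alone gives about 1 in 20, but the measures share libraries and are not independent. The low fat 200 library number 2 had 41.8% of its list in the stretches, with the next library of its group at 14.1%. The low fat 600 library number 2 had 40.6% of its list there, with the next at 11.3%. The low fat 200 library number 4 listed 48 peaks on chromosome 9, with the next at 34. The median −log10 p of the peaks in the stretches was 4.89 in the low fat 600 library number 3, with the next at 4.17. The first 2 of these libraries had short lists, of 196 and 101 peaks.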

How the results depend on the processing

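The number of regions with a label difference in listing was 42, and 66 with peaks chained by centres within 500 bp, when 40 of them were in the stretches in place of 27. It was 0 with libraries of at least 1000 peaks, which leaves 9 against 6 libraries. It was also 0 with the replicate block, an exact sign test by which a region alone could not pass the adjustment over 8592 regions. No fat call appeared under any of these alternatives. The count for width was 2209, and 386 of 501 regions with a minimum of 6 libraries of each set, 122 after centring and 1117 of 1619 regions with peaks above the median of their set. The count for strength was 887, and 26 with the minimum of 6, 82 after centring and 2745 with the replicate block. The count for area was 20, and 11 with the minimum of 6, 143 after centring, 49 with the stronger peaks and 493 with the replicate block. The difference of high and low fat 200 libraries in peaks of the stretches passed with the stronger peaks, at 19.3. Fewer regions or libraries enter with the minimum, the stronger peaks and the longer lists; the cause of the other changes was not tested.

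Centring on the library median turned the sign of the log2 width difference at 11 sites: chr5:39925637 (−0.36), chr5:40062989 (−0.79), chr5:40069578 (−0.35), chr5:40077576 (−0.33), chr5:40191956 (−0.40), chr8:14804 (−0.066), chr9:63316423 (−0.30), chr9:63355843 (−0.51), chr9:63370964 (−0.95), chr9:63386057 (−0.17) and chr9:63448214 (−0.035). Chaining by centres turned width at chr5:39925637 (−0.15) and chr9:63370964 (−0.42) and strength at chr8:919 (−0.091). Libraries of at least 1000 peaks turned width at chr9:63370964 (−0.24), the replicate block turned it at chr5:40062989 (−0.12), and the listing difference at chr5:39817177 became −2 libraries with the stronger peaks and −1 with the longer lists. The longer lists leave 9 against 6 libraries, so that −1 is a difference of counts and not of shares. Of the other comparisons of a site with an alternative, all without a change of sign, 79 for strength kept their side of the threshold and 15 lost the call. For width 67 kept it, 9 lost and 4 gained the call, and for listing 148, 66 and 3. Both increases in strength, at chr8:10157 and chr5:40191956, passed under every alternative that was run.

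Same-numbered 200 and 600 libraries deviated together with correlations of 0.0375 to 0.628, above 0.1 in 12 of 14, and 7 of 14 correlated best with their own number, which falls short of all pairs being above 0.1. They were not treated as pairs in the main tests. Neither these values nor the shared order of the fat groups settles whether they come from the same animal. With the block 12 of 20 sites were called for width, against 65.4% of all regions, 19 of 20 for strength, against 86.1%, and 10 of 20 for area, 6 larger and 4 smaller, against 14.0% and 1.44%. For the fat groups the block was another one, of high and low fat libraries with the same replicate number. By exact sign flips the fat difference in peaks of the stretches was 25.3 in the 200 set (adjusted p = 0.188). In the 600 set it was 3.71 (adjusted p = 0.578, exact sign flips). Replicate numbers run within each group, so that pairing is arbitrary, and nothing is read from its p-values. Without read counts, the lists cannot show whether an unlisted site was closed, thinly sequenced or removed.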
